A study of Mus musculus with 6 samples.

Results

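Myostatin, the activins, their extracellular antagonists and their receptors set one of the best known brakes on muscle growth. Levels of 10 genes of this system, of 23997 gene symbols listed, were examined in the gastrocnemius, the large muscle of the calf, of 3 HrasG12V and 3 wild-type (WT) littermate mice aged 21 days. The 10 genes were chosen by name: the ligands *Mstn*, *Gdf11*, *Inhba* and *Inhbb*, the antagonists *Fst* and *Fstl3*, the receptors *Acvr2a*, *Acvr2b* and *Acvr1b*, and the signal transducer *Smad3*. The choice was made with results of the same 6 libraries known, and *Mstn* is a gene that the study itself names, so differences between genotypes in these 10 genes are given below as a description. RNAseq was performed on 1 library per untreated mouse, and each value is an FPKM, the number of mapped fragments normalized to transcript length and library size, as scaled between libraries by Cuffnorm. The HrasG12V mice (2276, 2278 and 2279) were Caggs-Cre+/HrasG12V/+ and expressed 1 activated *Hras* allele from its own promoter after Cre excision, and the WT mice (2277, 2280 and 2281) were Caggs-Cre-/HrasflG12V/+ and carried the same allele unrecombined (their genotype is also labelled Hras+/+). The Cre transgene is driven by the CAG promoter, which is active in most tissues, so recombination was not limited to muscle fibers, and presence of Cre cannot be told apart from the *Hras* genotype. The labels give no sex and no batch.

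Myostatin, encoded by *Mstn*, is secreted by muscle fibers as an inactive precursor, is cut by furin-type and tolloid proteases, and binds the type II receptors ActRIIA and ActRIIB. The type II receptor then engages a type I receptor, ALK4 (encoded by *Acvr1b*) or ALK5 (*Tgfbr1*), which phosphorylates SMAD2 and SMAD3, and these enter the nucleus with SMAD4. Activins share the type II receptors and ALK4, and follistatin and follistatin-like 3 bind both kinds of ligand and keep them from the receptor. Loss of myostatin gives greatly enlarged muscles in several mammals.

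The targeted gene, *Hras*, was at 36.8, 36.0 and 51.8 FPKM in the WT mice (2277, 2280 and 2281) and at 58.8, 28.9 and 16.0 FPKM in HrasG12V mice 2276, 2278 and 2279. The genotypes overlapped, and since FPKM counts the mutant and normal alleles together these levels do not check the labels. The reads, which can tell the alleles apart, were not analysed here. The depth of each library could not be recovered from the FPKM, so precision is known only from the spread between mice. Several transcripts that define skeletal muscle were abundant in every library (*Actn3*, fast-fiber actinin, was at 1566 to 3322 FPKM), but *Acta1* and *Myh4* were listed at 0 in all 6 libraries, *Ckm* in 5, *Myh1* in 2 (WT mice 2277 and 2280) and *Tnnt3* in 1. An FPKM of 0 can be a failed estimate, so these zeros are not read as absence, and sums of FPKM leave these genes out where they are at 0. The 14 muscle markers summed to 64036 FPKM in mouse 2276 and to 28512 to 48085 FPKM in the other 5 libraries. None of the 10 genes was listed at 0 in any library. Markers of other cell types differed between genotypes. Of 6 tendon markers, 5 were lower in HrasG12V muscle (unadjusted limma p below 0.05), and their summed FPKM was 92.7 to 208 against 257 to 532 in WT. Of 6 endothelial markers 2 were lower (sums of 156 to 170 against 190.0 to 228 FPKM), and all 5 neutrophil markers found were higher (21.2 to 132 against 0.805 to 3.86 FPKM). B cell markers (3 of 6 higher) and T cell markers (5 of 6 higher) summed to 80.7 and 64.2 FPKM and to 32.7 and 41.3 FPKM in mice 2278 and 2279, but to 1.36 and 1.14 FPKM in mouse 2276, against at most 1.23 and 0.944 FPKM in WT mice. Adipocyte markers summed to 791 to 847 FPKM in HrasG12V and 402 to 709.5 FPKM in WT mice, of which *Fabp4* alone made up 713 to 769 and 395 to 678 FPKM, and 4 of the 6 markers (*Adipoq*, *Plin1*, *Cidec* and *Lep*) overlapped between genotypes. Of the adipocyte, macrophage, satellite cell and Schwann cell markers 1 of 6 each was higher, as were 2 of 6 blood markers, and 0 of 8 fibroblast markers passed, with sums of 459, 1303 and 282 FPKM in mice 2276, 2278 and 2279 and 655 to 786 FPKM in WT mice. The part of these cell types in the levels below was not tested, and in whole muscle fewer cells of a type and less RNA per cell cannot be told apart.

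The 10 genes spanned about 2 orders of magnitude in FPKM, a scale that allows genes of different length to be compared. In WT muscle the order of the mean levels was *Mstn* (27.8 FPKM), *Smad3* (23.0), *Acvr1b* (18.5), *Acvr2a* (11.2), *Fst* (5.91), *Acvr2b* (5.28), *Gdf11* (3.33), *Inhba* (0.728), *Fstl3* (0.496) and *Inhbb* (0.253). *Mstn* and *Smad3*, *Smad3* and *Acvr1b*, *Fst* and *Acvr2b*, and *Acvr2b* and *Gdf11* were neighbors whose ranges over the 3 WT mice overlapped, whereas the other 5 neighboring pairs did not overlap. *Mstn* was thus the most abundant of the ligands, and *Inhba* and *Inhbb*, the activin A and activin B subunits, were the least abundant. In HrasG12V muscle *Smad3* (18.5 FPKM) stood above *Mstn* (14.6) and *Inhbb* (0.575) above *Fstl3* (0.327), but in both pairs the ranges over mice overlapped.

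**Figure D1:**
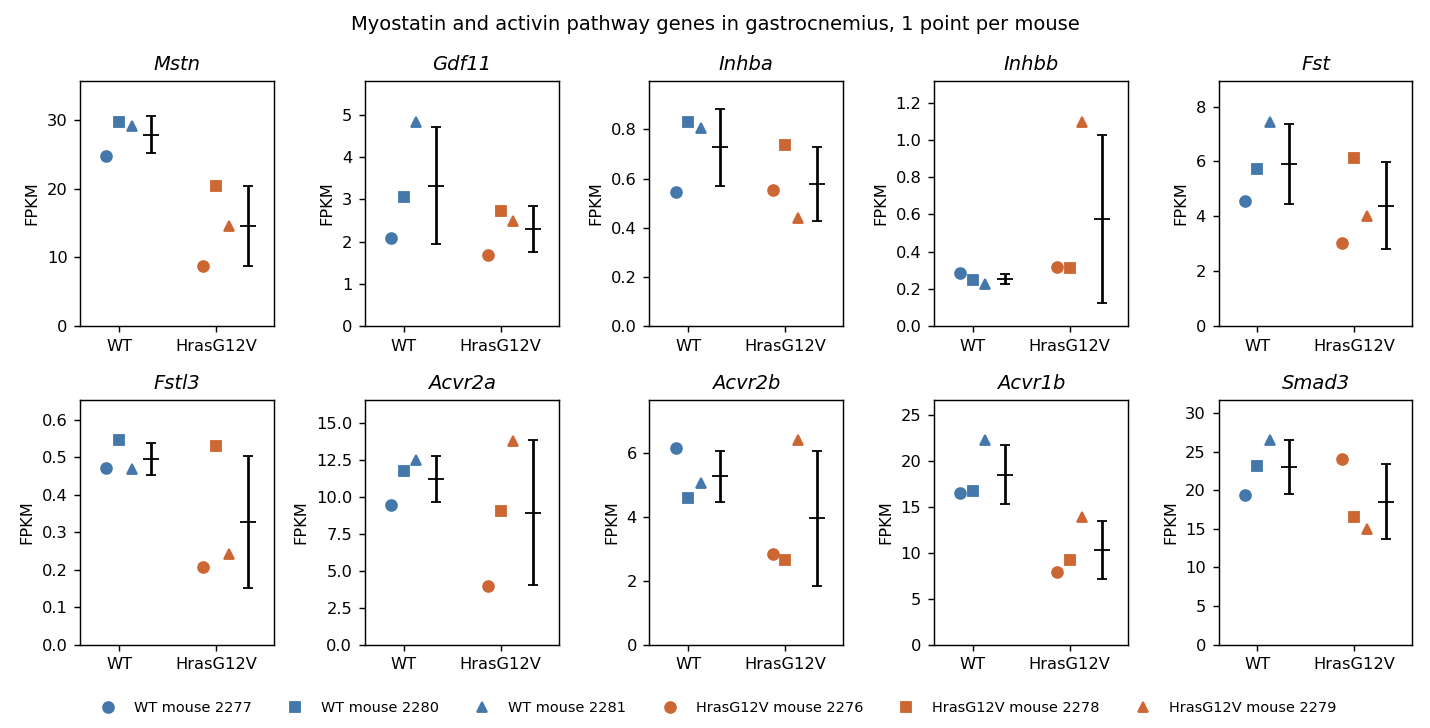
FPKM of each of the 10 genes (vertical axes, starting at 0) in the 3 WT and 3 HrasG12V mice, 1 symbol per mouse, with the mean ± SD (n = 3 mice) in black. For *Mstn* and *Acvr1b* the 3 HrasG12V mice lie below the 3 WT mice, for *Inhbb* they lie above, and for the other 7 genes the genotypes overlap.

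Between genotypes, 9 of the 10 genes had a lower mean in HrasG12V muscle and 1, *Inhbb*, a higher mean. Genes with a mean of at least 0.5 FPKM over the 6 libraries were compared on the log2(FPKM + 0.1) scale with limma, which estimates each gene's spread with help from genes of similar abundance, and fold changes on this scale understate the change of low genes. Of the 10 genes 8 passed this limit, and *Inhbb* and *Fstl3* did not. All 8 had a log2 fold change below 0, as did 53.4% of the 13359 genes tested, and their median was -0.47 against -0.03 for all genes tested. An unadjusted limma p below 0.05 was found for 2 of the 8, *Mstn* and *Acvr1b*, both lower, against 10.2% of all genes tested in either direction with 4.99% lower and 5.18% higher. After Benjamini-Hochberg adjustment over all genes tested 0 of the 8 passed 0.05 (limma adjusted p of 0.412 to 0.837), against 0.0599% of all genes. The same 2 genes had every HrasG12V mouse below every WT mouse, an order found for 10.4% of all genes tested. Because the 10 genes were chosen with this comparison known, nothing is read from these counts.

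*Mstn* showed the largest difference of the 10 on the fitted scale. It lies on chromosome 1 (GRCm38, 53061640 to 53068079, plus strand), with 3 exons (GENCODE vM21). Its level was 24.7, 29.7 and 29.1 FPKM in the WT mice (2277, 2280 and 2281) and 8.80, 20.4 and 14.5 FPKM in HrasG12V mice 2276, 2278 and 2279. All 3 HrasG12V mice were below the lowest WT mouse, and mouse 2276 was farthest below. The means were 27.8 ± 2.74 FPKM (SD, n = 3) in WT and 14.6 ± 5.82 (SD, n = 3) in HrasG12V muscle, 52.4% of the WT level, with a log2 fold change of -1.004 (standard error 0.31). The HrasG12V mice were at 31.6%, 73.4% and 52.2% of the WT mean. HrasG12V mice differed among themselves by 2.32-fold, and WT mice by less, with a coefficient of variation of 9.85% against 39.9%. Leaving out single mice moved the log2 fold change to values from -1.29 to -0.68. The unadjusted limma p was then 0.0561 when WT mouse 2280 was omitted and 0.0533 when WT mouse 2281 was omitted, and below 0.05 in the other 4 sets.

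Since *Mstn* and *Acvr1b* were the genes of the 10 in which the genotypes separated downward, the 250 bases before their start sites are shown, as given by RefSeq for GRCm38.p6. Each is written 5′ to 3′ in the direction of the gene, and capitals mark matches to the E-box CANNTG, which reads the same on both strands. This is a general motif of basic helix-loop-helix factors, which include MyoD, and a match does not show which factor binds.
*Mstn*, chr1:53061390-53061639, plus strand: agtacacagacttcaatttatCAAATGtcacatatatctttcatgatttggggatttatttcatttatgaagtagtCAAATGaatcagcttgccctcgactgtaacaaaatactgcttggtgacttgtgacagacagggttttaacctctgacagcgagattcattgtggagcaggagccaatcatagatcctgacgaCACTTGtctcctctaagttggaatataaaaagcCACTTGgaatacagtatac
*Acvr1b*, chr15:101173822-101174071, plus strand: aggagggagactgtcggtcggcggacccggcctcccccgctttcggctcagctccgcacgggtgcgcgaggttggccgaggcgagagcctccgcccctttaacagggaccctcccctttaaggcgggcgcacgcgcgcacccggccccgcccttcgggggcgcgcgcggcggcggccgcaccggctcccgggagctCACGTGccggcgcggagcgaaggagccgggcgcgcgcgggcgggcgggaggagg

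The *Mstn* window had 38.4% G and C, 4 E-boxes beginning 229, 174, 52 and 19 bases before the start site, a TATA box (TATAAA, searched on both strands) beginning 29 bases before it, and 2 copies of the SMAD-binding letters CAGAC. The *Acvr1b* window had 78.8% G and C, 1 E-box (CACGTG, beginning 54 bases before the start site), no TATAAA and no CAGAC on either strand. Promoter windows were at hand for 9 of the 10 genes. Of these 9, 4 held an E-box (*Mstn*, *Gdf11*, *Fstl3* and *Acvr1b*), 4 held CAGAC or its reverse complement GTCTG (*Mstn*, *Fstl3*, *Acvr2a* and *Acvr2b*) and 4 held TATAAA or its reverse complement (*Mstn*, *Gdf11*, *Inhba* and *Fstl3*). Over all 32851 promoter windows of this length, 66.2% held an E-box, 42.2% a SMAD element and 12.4% a TATA box.

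*Acvr1b* encodes ALK4, the type I receptor of activins and of myostatin, and lies on chromosome 15 (101174067 to 101213684, plus strand), with 9 exons. It was at 16.5, 16.7 and 22.2 FPKM in the WT mice (2277, 2280 and 2281) and at 7.93, 9.16 and 13.9 FPKM in HrasG12V mice 2276, 2278 and 2279. The genotypes did not overlap, and the gap between the highest HrasG12V and the lowest WT mouse was smaller than the range within either genotype. The means were 18.5 ± 3.24 FPKM (SD, n = 3) in WT and 10.3 ± 3.15 (SD, n = 3) in HrasG12V muscle, and the log2 fold change was -0.86 (standard error 0.25). In the 6 sets of 5 mice it ranged from -1.09 to -0.69. Omitting WT mouse 2281 gave an unadjusted limma p of 0.0513, and each of the 5 other sets gave one below 0.05.

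The type II receptors varied among the HrasG12V mice more than between the genotypes. *Acvr2a*, which encodes ActRIIA and lies on chromosome 2 (48814109 to 48903269, plus strand), was at 9.41, 11.7 and 12.5 FPKM in the WT mice and at 3.96, 8.995 and 13.8 FPKM in mice 2276, 2278 and 2279. The lowest and the highest of the 6 mice were thus both HrasG12V, with a 3.48-fold range against 1.32-fold among WT mice. Its log2 fold change of -0.49 (standard error 0.43) rested on mouse 2276, without which it was 0.0017. *Acvr2b*, which encodes ActRIIB, the receptor that binds myostatin most tightly, lies on chromosome 9 (119402118 to 119434995, plus strand). It was at 6.16, 4.59 and 5.08 FPKM in the WT mice and at 2.84, 2.64 and 6.41 FPKM in mice 2276, 2278 and 2279. Mice 2276 and 2278 were below every WT mouse and mouse 2279 was above every WT mouse. The log2 fold change of -0.51 (standard error 0.35) was -0.91 without mouse 2279 (unadjusted limma p 0.00456), -0.34 without mouse 2276 and -0.29 without mouse 2278. Mouse 2279 had the highest level of both type II receptors.

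**Figure D2:**
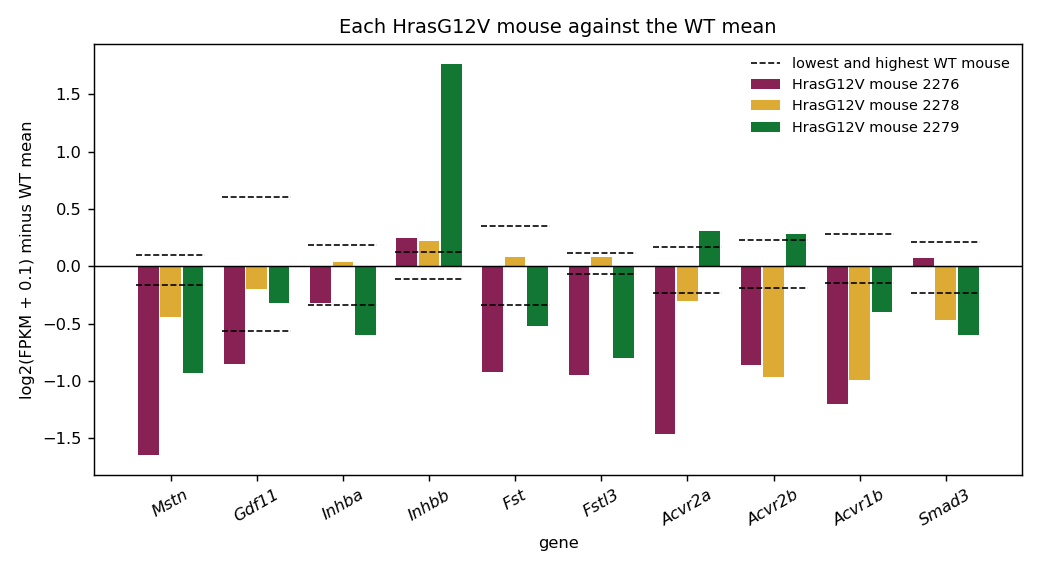
Difference of each HrasG12V mouse from the WT mean on the log2(FPKM + 0.1) scale (vertical axis) for each of the 10 genes, with 1 bar per mouse and dashed lines at the lowest and highest WT mouse. Bars of all 3 mice pass the lower line for *Mstn* and *Acvr1b*, and mouse 2276 is the lowest of the 6 mice for 6 genes, from *Mstn* at -1.65 to *Gdf11* at -0.86.

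Neither antagonist had a higher mean in HrasG12V muscle. *Fst*, encoding follistatin, on chromosome 13 (114452290 to 114458951, minus strand), was at 4.56, 5.74 and 7.44 FPKM in the WT mice and at 3.02, 6.14 and 4.01 FPKM in mice 2276, 2278 and 2279. Mice 2276 and 2279 were below every WT mouse and mouse 2278 lay within the WT range. The log2 fold change was -0.45 (standard error 0.30), and it was -0.72 without mouse 2278 (unadjusted limma p 0.0447), -0.28 without WT mouse 2281 and -0.22 without mouse 2276. *Fstl3*, encoding follistatin-like 3, on chromosome 10 (79777272 to 79782630, plus strand), was at 0.473, 0.546 and 0.469 FPKM in the WT mice and at 0.208, 0.530 and 0.242 FPKM in mice 2276, 2278 and 2279. Both antagonists thus had the same order of HrasG12V mice, with 2276 lowest and 2278 highest and within the WT range. *Fstl3* was too low to enter the fit, and its difference of means on the log2(FPKM + 0.1) scale was -0.55.

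The ratio of *Mstn* to *Fst* FPKM within a library does not depend on how libraries were scaled. It was 5.41, 5.17 and 3.91 in WT mice 2277, 2280 and 2281 and 2.91, 3.33 and 3.63 in HrasG12V mice 2276, 2278 and 2279. The genotypes did not overlap, with means of 4.83 ± 0.807 (SD, n = 3) and 3.29 ± 0.358 (SD, n = 3), but WT mouse 2281 was close to HrasG12V mouse 2279. Of 6 such ratios of *Mstn*, the genotypes overlapped for 4 (to *Gdf11*, *Acvr2b*, *Acvr1b* and *Smad3*) and did not for 2 (to *Fst* and *Acvr2a*). The ratio to *Acvr2a* was 2.34 to 2.62 in WT and 1.06 to 2.27 in HrasG12V mice, and that to *Acvr1b* was 1.31 to 1.77 and 1.05 to 2.23. No share of ratios over all genes was computed for comparison. These ratios were chosen after the levels had been seen, and *Mstn* alone already separated the genotypes, so they are not independent of its level.

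Among the other ligands, *Gdf11*, the closest relative of myostatin, on chromosome 10 (128882295 to 128891718, minus strand), was at 2.09, 3.05 and 4.83 FPKM in the WT mice and at 1.69, 2.73 and 2.49 FPKM in mice 2276, 2278 and 2279. WT mice spanned 2.31-fold, more than the HrasG12V mice (1.62-fold), and the log2 fold change was -0.46 (standard error 0.34), moving to -0.16 without WT mouse 2281, -0.26 without mouse 2276 and -0.74 without WT mouse 2277. *Inhba*, on chromosome 13 (16011851 to 16031621, plus strand), whose product pairs to form activin A, was at 0.547, 0.831 and 0.804 FPKM in the WT mice and at 0.554, 0.739 and 0.440 FPKM in mice 2276, 2278 and 2279, with a log2 fold change of -0.29 (standard error 0.36) that ran from -0.46 without WT mouse 2277 to -0.14 without mouse 2279. The genotypes overlapped. *Inhbb*, on chromosome 1 (119415465 to 119422248, minus strand), whose product pairs to form activin B, was at 0.284, 0.248 and 0.226 FPKM in the WT mice and at 0.316, 0.310 and 1.10 FPKM in mice 2276, 2278 and 2279. No HrasG12V mouse was as low as any WT mouse, as held for 8.11% of the genes tested, but mice 2276 and 2278 were only just above, and the difference of the means on the log2(FPKM + 0.1) scale, 0.74, came mainly from mouse 2279 at 434% of the WT mean. *Inhbb* was below the limit for the fit.

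*Smad3*, the transcription factor downstream of ALK4 and ALK5, on chromosome 9 (63646767 to 63757994, minus strand), was at 19.5, 23.2 and 26.5 FPKM in the WT mice and at 24.1, 16.5 and 15.1 FPKM in mice 2276, 2278 and 2279. Here the order of the HrasG12V mice differed from that of *Mstn*: mice 2278 and 2279 were below every WT mouse, whereas mouse 2276 was above the WT mean. The log2 fold change was -0.33 (standard error 0.23), and with single mice left out it ran from -0.53 without mouse 2276 (unadjusted limma p 0.0188) to -0.20 without mouse 2279 (0.448).

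**Figure D3:**
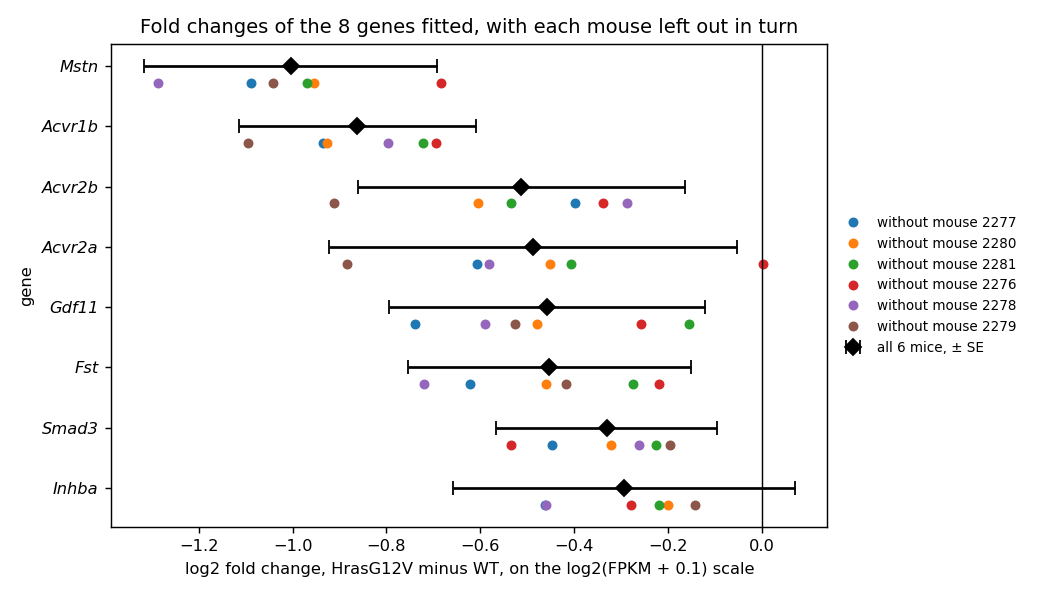
Log2 fold changes (HrasG12V minus WT, log2(FPKM + 0.1) scale) of the 8 genes that entered the fit, with black diamonds and bars for all 6 mice ± standard error and colored points for each set of 5 mice. Only the points of *Acvr2a* without mouse 2276 reach 0, at 0.0017, and those of *Mstn* run from -1.29 to -0.68.

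Mouse 2276 had the lowest level of 6 of the 10 genes, *Mstn*, *Gdf11*, *Fst*, *Fstl3*, *Acvr2a* and *Acvr1b*. The median difference from the WT mean over the 8 genes fitted was -0.89 in mouse 2276, -0.37 in mouse 2278 and -0.46 in mouse 2279 on the log2 scale, while the medians over all genes tested were 0.04, -0.08 and -0.04. Mouse 2276 also had the largest sum of FPKM, 814013 against 413020 to 547122 in the other 5 libraries, and a median FPKM of the genes tested of 6.39 against 6.56 to 6.64. With every library rescaled to the same total, the log2 fold changes of *Mstn* and *Acvr1b* were -1.01 and -0.87, but their unadjusted limma p rose to 0.0983 and 0.0888. When mouse 2276 was left out, their log2 fold changes were -0.68 and -0.69, with unadjusted limma p-values of 0.0133 and 0.0314.

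Genes whose pattern over the 6 mice was closest to that of *Mstn* were sought by the root mean square difference of log2(FPKM + 0.1) profiles, each centered on its own mean, among genes with a mean of at least 1 FPKM. The 5 nearest outside the 10 were *Opcml* (0.12), *Agmo* (0.13), *Slc25a36* (0.14), *Rgs5* (0.14) and *Adamtsl3* (0.15), against a median of 0.70 over all 12177 genes compared. *Rgs5*, a regulator of G protein signaling known as a pericyte marker, ranged from 189 to 217 FPKM in WT and was at 63.9, 132 and 109 FPKM in mice 2276, 2278 and 2279. *Slc25a36*, a mitochondrial nucleotide carrier, ranged from 23.6 to 26.8 FPKM in WT and was at 7.54, 19.1 and 16.7 FPKM in these mice. That these genes share the order of mice of *Mstn*, and lie below the median difference, follows from how they were picked. Of the 10 genes themselves *Fst* was the nearest to *Mstn* (0.32, with 2.24% of genes nearer) and *Smad3* the farthest of those compared (0.63, with 37.8% nearer).

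The wider TGF-beta superfamily was examined with 7 lists that together held 108 other genes, grouped by role, a few of them in more than 1 list. Of these, 86 passed the limit of 0.5 FPKM, 5 were higher and 7 lower in HrasG12V muscle with an unadjusted limma p below 0.05, and 74 did not pass. The 14.0% called compare with 10.2% of all genes tested, and the median log2 fold change was -0.19. After adjustment over all genes 0 of the 86 passed 0.05, the lowest limma adjusted p being 0.398. The count of 12 was 3, 2 and 4 without WT mouse 2277, 2280 or 2281, 20 without mouse 2276 and 6 without mouse 2279. By list, over the 6 sets of 5 mice, the count ran from 0 to 6 for ligands (with *Bmp1*, a protease) and 1 to 6 for antagonists and latency proteins. It ran from 0 to 2 for other proteases, 1 to 3 for Smads and their regulators and 0 to 2 for targets of bone morphogenetic proteins. Of the 12 genes, only *Nog* and *Tob1* kept an unadjusted p below 0.05 in all 6 sets of 5 mice.

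**Figure D4:**
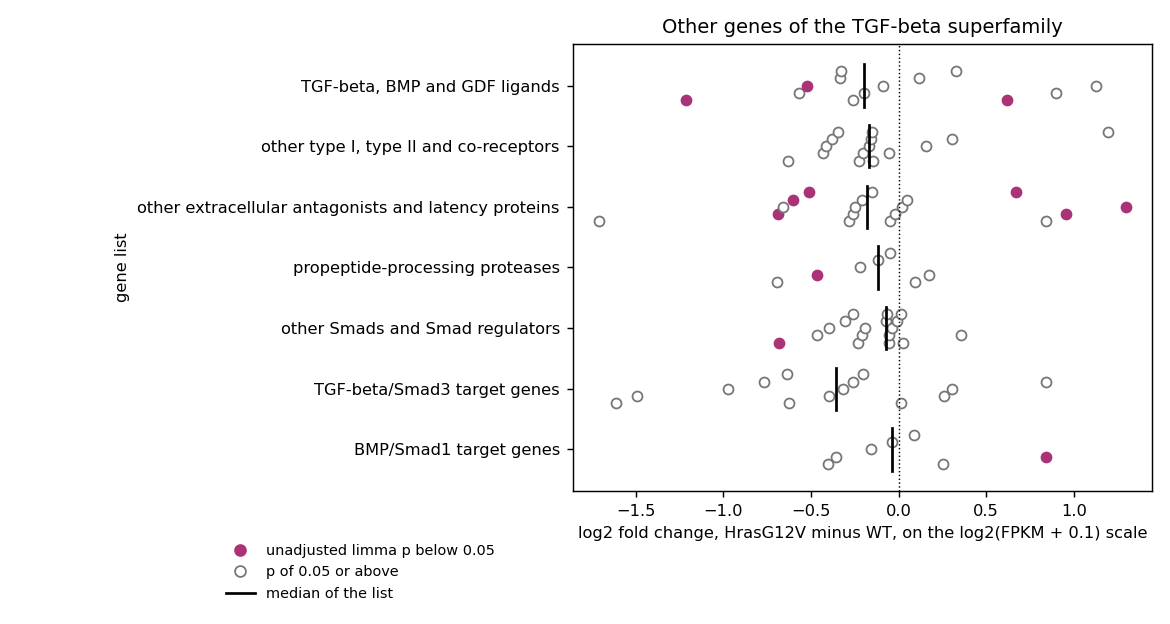
Log2 fold changes (horizontal axis, HrasG12V minus WT, log2(FPKM + 0.1) scale) of the genes tested in 7 lists, 1 point per gene, filled where the unadjusted limma p was below 0.05, with the median of each list as a bar. The 12 filled genes lie on both sides of 0, and the medians run from -0.36 (TGF-beta/Smad3 target genes) to -0.03 (BMP/Smad1 target genes).

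Of the 26 genes listed as ligands 13 were tested, with 1 higher and 2 lower. The list holds *Bmp1*, which encodes a tolloid protease and not a ligand. *Bmp1* did not pass with all 6 mice (log2 fold change -0.33, standard error 0.21). Without mouse 2278 it was at -0.51 (unadjusted limma p 0.0264). The bone morphogenetic protein genes went in different directions. *Bmp4* was at 2.89 to 3.28 FPKM in WT and at 6.20, 3.57 and 4.90 FPKM in mice 2276, 2278 and 2279 (log2 fold change 0.62, standard error 0.22). *Bmp5*, at 1.98 to 4.93 FPKM in WT and 0.876 to 1.80 in HrasG12V mice, and *Bmp6*, at 4.46 to 5.67 and 3.003 to 4.42 FPKM, were lower, with log2 fold changes of -1.21 (standard error 0.40) and -0.52 (standard error 0.19). These calls held in only 2 of the 6 sets of 5 mice for each of the 3 genes. The ligands *Tgfb1*, *Tgfb2* and *Tgfb3*, which share SMAD3 with myostatin, had log2 fold changes of 0.33, 0.12 and -0.20 and did not pass with all 6 mice. Without mouse 2276, *Tgfb1* (0.67) and *Tgfb3* (-0.37) passed, with unadjusted limma p-values of 0.00212 and 0.0231, and *Tgfb2* changed sign without WT mouse 2277 (-0.05) or mouse 2276 (-0.01).

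Of the other receptors and co-receptors 15 of 16 were tested and 0 passed in either direction. Without mouse 2276, 3 passed (*Tgfbr2* at 0.41, *Acvr1c* at 2.20 and *Hfe2* at -0.64), in a set where 29.8% of all genes tested were called. *Acvr1c* had a WT mean of 0.250 FPKM, and so entered the fit only through the HrasG12V mice (mean 0.887). Without mouse 2279, 1 passed (*Bmpr2*), in a set where 11.5% of all genes were called. *Tgfbr1*, which encodes ALK5, the other type I receptor of myostatin, ranged from 11.5 to 13.6 FPKM in WT and was at 5.47, 12.3 and 14.6 FPKM in mice 2276, 2278 and 2279, with a log2 fold change of -0.35 (standard error 0.36) that was 0.08 without mouse 2276 and -0.62 without mouse 2279. It was lowest in mouse 2276 and highest in mouse 2279, the order also seen for *Acvr2a*. *Bmpr2*, a type II receptor of bone morphogenetic proteins, was at 16.0 to 17.5 FPKM in WT and 6.37 to 15.8 FPKM in HrasG12V mice without overlap, but did not pass (log2 fold change -0.63, standard error 0.33). Its log2 fold change was -0.91 without mouse 2279 and -0.27 without mouse 2276.

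Extracellular antagonists and latency proteins held 6 of the 12 genes called, 3 higher and 3 lower of 18 tested. *Nog*, which encodes noggin, an inhibitor of bone morphogenetic proteins, ranged from 1.10 to 1.45 FPKM in WT and was at 3.13, 1.75 and 2.88 FPKM in mice 2276, 2278 and 2279, with a log2 fold change of 0.95 (standard error 0.27) that ranged from 0.80 to 1.201 over the 6 sets of 5 mice. *Sostdc1* and *Chrdl2*, which encode further inhibitors of this kind, had log2 fold changes of 1.30 (standard error 0.51) and 0.67 (standard error 0.27), and each passed in 1 of the 6 sets of 5 mice. *Sostdc1* had a WT mean of 0.405 FPKM, and so entered the fit only through the HrasG12V mice (mean 1.29). *Wfikkn2*, whose product binds myostatin and GDF11, was at 1.92 to 3.03 FPKM in WT and at 1.81, 1.01 and 1.47 FPKM in mice 2276, 2278 and 2279 (log2 fold change -0.69, standard error 0.28), and passed in 1 of the 6 sets. *Twsg1*, a modulator of bone morphogenetic proteins, and *Ltbp4*, which stores latent TGF-beta in the matrix, had log2 fold changes of -0.60 (standard error 0.21) and -0.51 (standard error 0.16). For both, the genotypes did not overlap, and they passed in 1 and 4 of the 6 sets. *Dcn*, which encodes decorin, a matrix proteoglycan that can bind myostatin, did not pass, at 306 to 361 FPKM in WT and 241 to 362 FPKM in HrasG12V mice (log2 fold change -0.15, and 0.03 without mouse 2276).

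Of the 8 genes listed as proteases that release the mature ligands, a list without *Bmp1*, 7 were tested and 1, *Pcsk6*, was lower. Its means were 7.14 and 5.196 FPKM in WT and HrasG12V mice (log2 fold change -0.47, standard error 0.18, passing in 2 of the 6 sets). *Furin*, which cuts the myostatin precursor, was at 19.2 to 22.1 and 16.6 to 19.2 FPKM and did not pass (log2 fold change -0.22, standard error 0.15).

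Inside the cell, 1 of 17 other Smads and Smad regulators passed. *Tob1*, which encodes an antiproliferative protein known to bind Smads, was at 115 to 120 FPKM in WT mice (the mean was 117 ± 2.56, SD, n = 3) and at 82.0, 75.3 and 62.3 FPKM in mice 2276, 2278 and 2279. All 3 HrasG12V mice were far below the narrow WT range, and the log2 fold change of -0.68 (standard error 0.20) ranged from -0.77 to -0.57 over the 6 sets of 5 mice. *Smad2*, *Smad4* and *Smad7*, the partner of SMAD3, their common partner and their inhibitor, had log2 fold changes of -0.07, -0.21 and 0.01 and did not pass with all 6 mice. *Smad4* was at -0.53 without mouse 2279 (unadjusted limma p 0.0134) and -0.02 without mouse 2276, and *Smad2* (0.10 without mouse 2276) and *Smad7* (-0.14 without mouse 2279) changed sign.

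Of 14 genes known as targets of TGF-beta and SMAD3, 14 were tested and 0 passed, with a median log2 fold change of -0.36. Without mouse 2278, 4 passed, all lower (*Col1a1*, *Col1a2*, *Fn1* and *Postn*). Without mouse 2276, 2 passed, both higher. These were *Ltbp2* at 1.596 (unadjusted limma p 0.0084) and *Tgfbi* at 0.677 (unadjusted limma p 0.0185). With all 6 mice the lowest were the collagen genes *Col1a2* and *Col1a1*, at -1.61 and -1.49 (standard errors 0.76 and 0.75), whose genotypes overlapped. *Col1a1* was at 211, 1175 and 266 FPKM in mice 2276, 2278 and 2279, and so was highest in mouse 2278. The sum of the fibroblast markers was also highest in that mouse, but another collagen gene, *Col3a1*, alone made up 920 of its 1303 FPKM. Without that mouse the log2 fold changes of *Col1a2* and *Col1a1* were -2.43 and -2.26. The part of fibroblast and tendon markers in these values was not tested. Of 7 targets of bone morphogenetic proteins, 1 passed, *Id2*, at 2.77 to 4.02 FPKM in WT and 3.63, 7.46 and 7.999 FPKM in mice 2276, 2278 and 2279 (log2 fold change 0.84, standard error 0.33). Mice 2278 and 2279 were above the WT range and mouse 2276 was within it, and the call held in 1 of the 6 sets of 5 mice. *Id1* and *Id3* had log2 fold changes of -0.40 and 0.09 and did not pass with all 6 mice, but *Id1* was at -0.76 without mouse 2276 (unadjusted limma p 0.0325) and at -0.0071 without mouse 2278.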

How the data were processed

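The authors made stranded mRNA libraries from gastrocnemius RNA (1 per mouse, single-end reads), aligned them with TopHat and deposited FPKM from Cufflinks and Cuffnorm, 1 value per gene symbol. The submitters' processing notes also name bcl2fastq and the builds GRCm38 and mm10. The tool versions, annotation and strand setting were not given in the sources used here. Whole reads could not be recovered from low FPKM (for each library pair, at most 5.01% of ratios fell in 1 interval of 1% width), so no count model was used. The study's methods give 1 approximate number of reads for all samples, and the depth of each library was not recovered.

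From these FPKM, log2(FPKM + 0.1) of the 13359 genes with a mean of at least 0.5 FPKM were compared between genotypes with limma (3.58.1; R 4.3.3) using a mean-variance trend and no covariate (Benjamini-Hochberg adjustment over all genes tested, thresholds of 0.05). The limit was taken over all 6 libraries. Genes with a WT mean below 0.5 FPKM, such as the B and T cell markers, could thus enter through the HrasG12V mice. The fit was tested on simulated data. The p-values measure only the spread between 3 mice per group.

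The 10 genes and all gene lists were chosen with earlier results of these data known. Named genes are the 10, up to 3 genes at each end of each pathway list with those past the unadjusted p first, and the 5 profiles nearest *Mstn*. *Bmp1*, *Tgfb1*, *Tgfb2*, *Tgfb3*, *Tgfbr1*, *Smad2*, *Smad4* and *Dcn* were named for their role, after the values were seen. *Tgfbr2* and *Postn* were named for their values without 1 mouse, also after the values were seen. Cell type markers were described by list.

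Alternatives were pseudocounts of 1 and 0.01, no filter, a mean of at least 1 FPKM, quantile normalization, median centring, a common total FPKM, robust and no moderation, array weights, leaving out each mouse, and HrasG12V mouse 2276 alone against WT. Positions are from GENCODE vM21 on GRCm38, and promoter sequences from RefSeq on GRCm38.p6. Other steps used Python 3.11.15 with numpy 2.4.6, pandas 2.3.3 and matplotlib 3.10.9. Protein sequences were not used here.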

Additional observations from a re-analysis of the deposited data

How the results depend on the processing

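No paired analysis was possible because the labels tie no HrasG12V mouse to a WT mouse by litter or number, and the replicate numbers, given in accession order, only name the mice. Of the 10 genes, 2 had an unadjusted limma p below 0.05, and this count was 0 after scaling all libraries to 1 common total FPKM, 0 to 3 with each mouse left out in turn (0 without WT mouse 2281, 1 without WT mouse 2280) and 4 for mouse 2276 alone against the WT mice, a comparison in which the lone mouse is assumed to vary like the others. The count with an adjusted p below 0.05 was 0 in each of these settings except the last, where it was 3. Over all 13359 genes the unadjusted count of 1358 was 712 with the same total FPKM, 3042 with array weights, 606 to 3979 with each mouse left out and 6312 for mouse 2276 alone. The adjusted count of 8 was 5 with a pseudocount of 1, 1 without moderation, 572 with array weights, 7 to 1291 with each mouse left out and 4200 for mouse 2276 alone. The 12 other pathway genes with an unadjusted p below 0.05 were 4 with the same total FPKM, 6 without moderation, 2 to 20 with each mouse left out and 38 for mouse 2276 alone. The log2 fold change of *Acvr2a* ran from -0.88 to 0.0017 with each mouse left out, and that of *Smad3* was 0.0742 for mouse 2276 alone. Under the other pseudocounts, filters, normalizations, moderations and weights, the directions of the 8 genes (7 with a mean of at least 1 FPKM, which leaves out *Inhba*) and the calls of *Mstn* and *Acvr1b* did not change, but some sizes did: array weights gave -0.08 for *Acvr2a*, -0.14 for *Fst* and -0.16 for *Gdf11*, and *Inhba* was at -0.70 with quantile normalization and -0.13 with a pseudocount of 1. With 3 mice per genotype, differences as small as those of *Gdf11*, *Inhba* and *Fst* were not resolved from the spread between mice.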
